A study of Mus musculus with 8 samples.

Results

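The ErbB receptors and their ligands were examined in mouse mammary epithelial cells that carried either wild-type ShcA or ShcA R175Q. All 10 genes of the family that were followed have at least 1 probe on the array: the receptor genes Erbb2, Egfr and Erbb3, and the ligand genes Nrg1, Hbegf, Tgfa, Areg, Ereg, Btc and Epgn. Members were every non-control probe with 1 of these gene names, which gave 12 probes in 39 spots per array, for 10 of 24450 named genes. Each probe was read on its own. The cells were NMuMG-NT2197, transfected with the retroviral vector pMSCV/hygro that held a ShcA cDNA. In 4 samples the cDNA was wild type, and in 4 it was the R175Q form, with glutamine in place of an arginine. NT2197 cells are known as a derivative of the NMuMG mammary line that expresses an activated ErbB2 (Neu) receptor. The labels do not mention that receptor, and whether the mouse Erbb2 probe reads its transcript was not determined. The labels give no clone number and no statement that replicates were separate cultures, so the p-values measure only the spread between these samples.

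ErbB receptors are transmembrane tyrosine kinases that pair when a ligand binds. EGFR binds EGF, TGF-alpha, amphiregulin, HB-EGF, betacellulin, epiregulin and epigen, whereas neuregulins bind ErbB3 and ErbB4. ErbB2 has no known ligand of its own and acts as the partner of the others, and the kinase of ErbB3 is weak. Most ligands are made as membrane precursors that proteases release. ShcA is an adaptor that docks on phosphotyrosines of activated receptors, including ErbB2 and EGFR, and hands the signal to Grb2 and the Ras pathway. The arginine lies in its PTB domain, the part that reads phosphotyrosine on receptors. The question here was whether transcripts of these receptors and ligands differ between cells with the mutant and cells with the wild-type adaptor.

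Every sample was labelled with Cy3 and hybridized beside a reference RNA labelled with Cy5, and values are log2 of sample over reference. Ratios of different probes are not comparable as levels. In Cy3, 53.7% to 63.0% of spots were well above background, and none was saturated. Wild-type replicate 3 stood apart in its 153 negative control spots, whose Cy3 SD was 40.8 intensity units, against 3.86 to 11.7 on the other arrays. Of the epithelial markers, 7 of 8 stood well above background on all 8 arrays, among them Cdh1, which codes for E-cadherin. Cldn4 stood well above it on 1 array. Every fibroblast marker, and every macrophage marker but Adgre1, also stood well above background on all 8 arrays. Presence above background therefore does not tell these cell types apart here. The epithelial marker Epcam lay far below the reference, at −5.06 in R175Q and −4.80 in wild type.

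The probe letters behind the most stable results are given because they decide which transcript is read. The files give all coordinates in mm9. Capitals mark a stop codon that closes a reading frame that runs without another stop through the 60-base probe; the upstream Egfr probe holds no such end. The Nrg1 probe lies on chromosome 8 at 32928500 to 32928559 on the minus strand. The Egfr probes lie on the plus strand of chromosome 11, at 16787172 to 16787231 for the one annotated to transcript variant 2, and at 16783556 to 16783615 for the one upstream of it, which the file ties to variant 2 and to 3 Ensembl transcripts.
Nrg1: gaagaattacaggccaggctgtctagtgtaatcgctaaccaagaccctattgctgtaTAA
Egfr variant 2: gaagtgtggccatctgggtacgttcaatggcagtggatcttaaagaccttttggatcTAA
Egfr upstream: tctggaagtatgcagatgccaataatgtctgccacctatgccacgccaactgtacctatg

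Across the family, transcripts of Egfr, Nrg1, Hbegf and Tgfa were lower in R175Q than in wild type, by 1.19-fold to 1.33-fold. No member was higher by the test. Of 12 probes, 11 probes for 9 genes were tested; all 11 stood well above background on all 8 arrays, so none entered through 1 group alone. Of these, 6 probes for 4 genes were called lower, 0 were called higher and 5 were not called (limma's moderated test, two-sided, Benjamini-Hochberg adjustment over 22847 probes, threshold 0.05). Over all tested probes 17.7% were called, with 9.73% lower and 8.0% higher. For 5 of the 11 member probes the groups did not overlap, against 23.0% of all tested probes. The median difference of the 11 probes, in which Egfr counts at each of its probes, was −0.25, and that of all tested probes was −0.02. A member without a call may still differ by any amount within its interval.

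**Figure D1:**
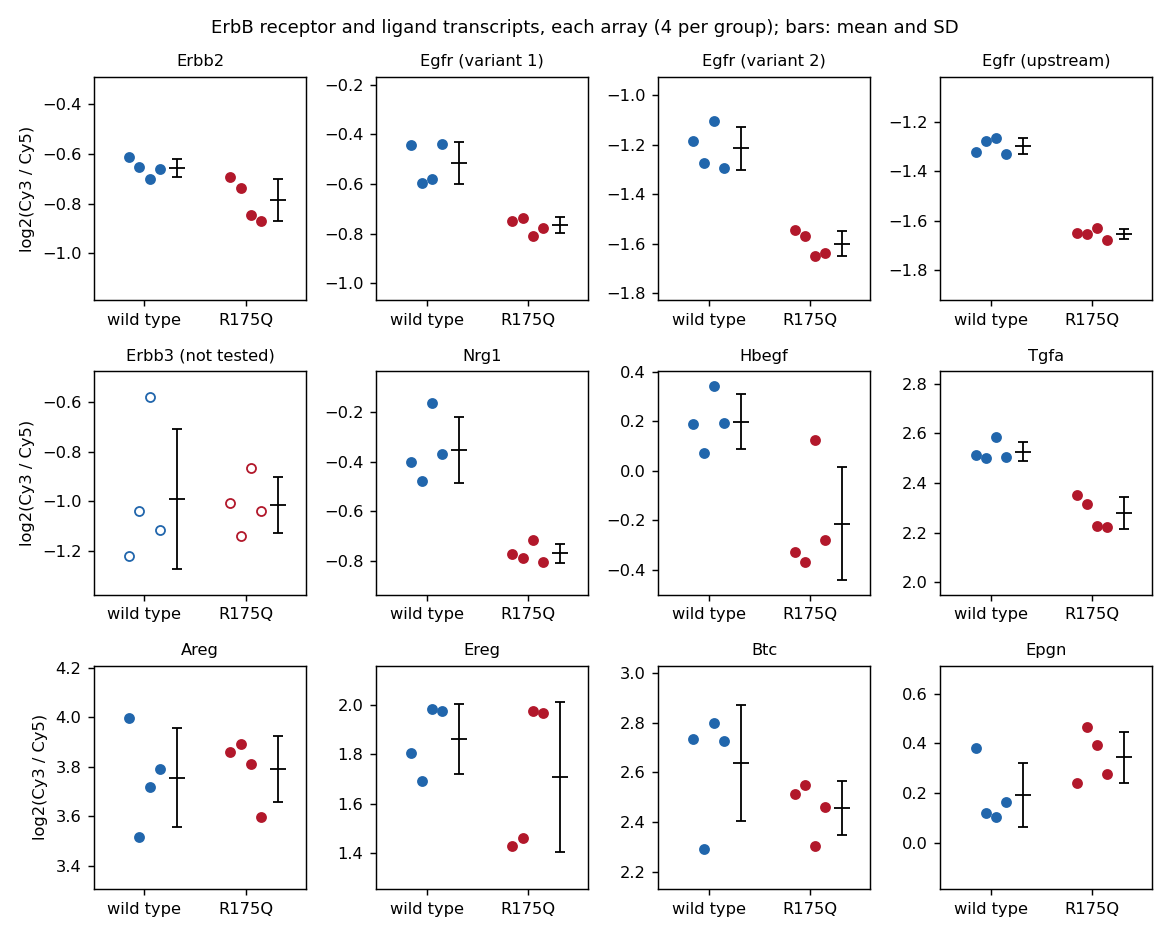
Log2 ratio of sample (Cy3) over reference (Cy5) for each of the 12 ErbB probes, with 1 point per array, 4 wild-type arrays in blue and 4 R175Q arrays in red; bars give the mean and SD, each panel has its own axis range, and open points mark Erbb3, which was not tested. The R175Q points lie wholly below the wild-type points for all 3 Egfr probes, Nrg1 and Tgfa, and the groups overlap in the other panels.

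Of the receptors, Egfr was lower in R175Q at all 3 of its probes. Egfr is the receptor that most of the listed ligands bind. The probe annotated to transcript variant 1, the full-length receptor, lies on chromosome 11 at 16813815 to 16813874. It read −0.75, −0.74, −0.81 and −0.78 in R175Q replicates 1 to 4, and −0.44, −0.60, −0.58 and −0.44 in wild-type replicates 1 to 4. All R175Q values are below all wild-type values, with the nearest wild-type arrays being replicates 2 and 3. The difference was −0.25 ± 0.06 (SE, n = 4 per group; 95% interval −0.39 to −0.12; limma adjusted p = 0.017), or 1.19-fold, and within slides it was −0.29, −0.22 and −0.34. This call does not hold throughout: leaving out wild-type replicate 1 gave −0.23 with adjusted p = 0.0605, and leaving out wild-type replicate 4 gave −0.23 with adjusted p = 0.0539.

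The variant 2 probe of Egfr reads a shorter form, known as a secreted receptor without the transmembrane and kinase parts. Its values were −1.55, −1.57, −1.65 and −1.64 in R175Q and −1.18, −1.28, −1.11 and −1.29 in wild type. Here too every R175Q array lies below every wild-type array. The difference was −0.38 ± 0.06 (SE, n = 4 per group; 95% interval −0.52 to −0.25; limma adjusted p = 0.0021), and −0.38, −0.46 and −0.34 within slides. The upstream Egfr probe read −1.65, −1.65, −1.63 and −1.68 in R175Q and −1.32, −1.28, −1.27 and −1.33 in wild type. These are the tightest groups among the members, with SDs of 0.019 and 0.033. The difference there was −0.35 ± 0.05 (limma adjusted p = 0.00107), and −0.33 to −0.36 within slides.

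Whether the Egfr probes differed in how far they were lower was tested on the difference between probes within each array. The upstream probe is tied to variant 2 and to 3 Ensembl transcripts, so its pairs do not compare single variants. The variant 1 probe was less lowered than the variant 2 probe by 0.13 ± 0.07 (exact two-sided permutation test over 70 assignments, p = 0.114, 0.256 after adjustment over 3 pairs). It was less lowered than the upstream probe by 0.10 ± 0.06 (exact permutation p = 0.171, adjusted 0.256), and the variant 2 and upstream probes differed by −0.032 ± 0.047 (exact permutation p = 0.514). No pair passed the threshold, which does not show that the probes moved alike. The smallest p that 4 against 4 arrays can give in this test is 0.0286 before adjustment. A pair that reached it alone would still not pass 0.05 after adjustment over 3 pairs, so the test could hardly detect a difference.

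Erbb2, the receptor without a ligand, was not called. Its probe lies on chromosome 11 at 98298103 to 98298162 and read −0.69, −0.74, −0.84 and −0.87 in R175Q and −0.61, −0.65, −0.70 and −0.66 in wild type. The groups overlap only through R175Q replicate 1, which lies just above wild-type replicate 3. The difference was −0.13 ± 0.06 (SE, n = 4 per group; 95% interval −0.26 to 0.0039; limma adjusted p = 0.177; exact permutation p = 0.0571), and −0.13, −0.17 and −0.21 within slides. The interval leaves room for a decrease about as large as that of Egfr variant 1. Under all alternatives tried Erbb2 stayed uncalled, with differences between −0.17 and −0.00081.

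The genes beside Erbb2 were read because Erbb2 and its neighbours are often amplified together in human breast tumours. Of 6 other genes within 100 kb of the Erbb2 probe that were tested, Grb7 was the only one called. That count is near the share over all tested probes, of which 17.7% were called. Grb7, an adaptor that binds ErbB receptors through its SH2 domain, read 0.28, 0.36, 0.17 and 0.19 in R175Q and 0.98, 0.85, 0.96 and 0.91 in wild type. It was lower by 0.67 on the log2 scale (SE 0.063, limma adjusted p = 7.55e-05). The other neighbours were Ppp1r1b, Stard3, Tcap, Pgap3 and Mien1, with differences from 0.046 to 0.20. Stard3, which lies on the other side of Erbb2 and moves cholesterol, had the largest of these, 0.20 ± 0.07 (limma adjusted p = 0.0746).

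Erbb3, the receptor for neuregulins, was too dim to test. Its probe lies on chromosome 10 at 128006424 to 128006483 and stood well above background on 3 of 8 arrays, of which 2 were R175Q and 1 was wild type. Its corrected Cy3 brightness was 65.3 to 95.8, which includes the added offset of 50. Its ratios were −1.01, −1.14, −0.87 and −1.04 in R175Q and −1.22, −1.04, −0.58 and −1.11 in wild type, with the groups overlapping throughout. Without the filter on dim probes the difference was −0.02 ± 0.13 (95% interval −0.31 to 0.26; limma adjusted p = 0.948), an interval wide enough to hold the change seen for Egfr variant 1 in either direction. Erbb4, the other neuregulin receptor, stood well above background on none of the 8 arrays at either of its probes and was not tested.

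**Figure D2:**
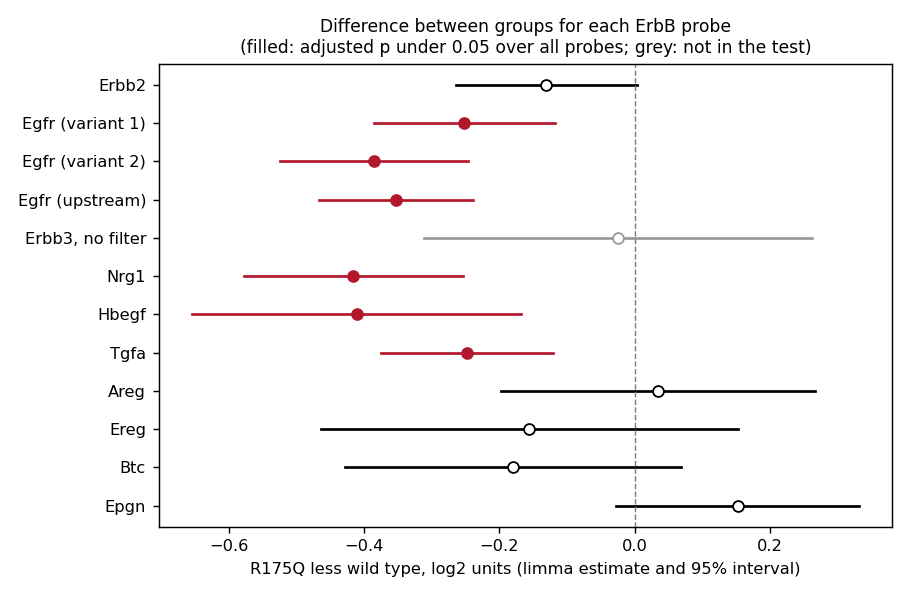
Difference between R175Q and wild type for each of the 12 ErbB probes in log2 units, with limma's 95% interval; filled red points have an adjusted p under 0.05 over all probes, and the grey Erbb3 interval comes from the fit without a filter. Egfr at 3 probes, Nrg1, Hbegf and Tgfa lie to the left of 0, and the intervals of the other members include 0.

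Among the ligands, Nrg1 was lower in R175Q and kept its call under each of the 27 alternatives tried. Not all of these could change a call: quantile normalization of brightness leaves the ratios as they are. The exact permutation test gave p = 0.0286, the smallest it can reach, and that p is not adjusted over probes. Nrg1 codes for neuregulin 1, which binds ErbB3 and ErbB4. It read −0.77, −0.79, −0.72 and −0.80 in R175Q and −0.40, −0.48, −0.17 and −0.37 in wild type. The R175Q arrays are close together, with an SD of 0.037, and the wild-type arrays spread more, with an SD of 0.13, mostly through replicate 3. The difference was −0.42 ± 0.07 (SE, n = 4 per group; 95% interval −0.58 to −0.25; limma adjusted p = 0.00323), or 1.33-fold. Within slides it was −0.39, −0.39 and −0.43. Across 27 alternatives the difference lay between −0.47 and −0.31, and the adjusted p or permutation p between 7.37e-05 and 0.0327.

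Hbegf, whose product is a heparin-binding ligand of EGFR and ErbB4, was lower in R175Q, with overlap between the groups. Its probe lies on chromosome 18 at 36664738 to 36664797. It read −0.33, −0.37, 0.12 and −0.28 in R175Q and 0.19, 0.073, 0.34 and 0.19 in wild type. R175Q replicate 3 lies apart from the rest of its group and above wild-type replicate 2. The difference was −0.41 ± 0.11 (SE, n = 4 per group; limma adjusted p = 0.0272; exact permutation p = 0.0571). Within slides it was −0.56, −0.083 and −0.47, and the small value is that of the slide with R175Q replicate 3. The call held in 14 of 27 alternatives. With slide as a fixed block the call was lost, at −0.34, and with scan day as a fixed block too, at −0.36, whereas slide as a random block kept it, at −0.40 (limma adjusted p = 0.025). It was also lost when any of R175Q replicates 1, 2 and 4 or wild-type replicates 1, 3 and 4 was left out, at −0.41 to −0.36, and with the scanner's processed signals, median centring and scaling between arrays, at −0.39, −0.30 and −0.43.

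Tgfa codes for TGF-alpha, a membrane-anchored ligand of EGFR that proteases shed. It was lower in R175Q by 1.19-fold. Its probe lies on chromosome 6 at 86224838 to 86224897 and read 2.35, 2.32, 2.23 and 2.22 in R175Q and 2.52, 2.50, 2.59 and 2.51 in wild type. The groups do not overlap, and wild-type replicate 3 is the highest array. The difference was −0.25 ± 0.06 (SE, n = 4 per group; 95% interval −0.38 to −0.12; limma adjusted p = 0.0141), and −0.20, −0.32 and −0.29 within slides.

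The array prints Erbb2, the variant 1 probe of Egfr and Tgfa 10 times each, which shows how far a single hybridization repeats itself. The SD over the spots of 1 array was 0.018 to 0.037 for Erbb2, 0.023 to 0.049 for Egfr and 0.025 to 0.062 for Tgfa, after spots marked as unreliable were dropped. For Egfr the highest spot on any R175Q array was −0.68, and the lowest spot on any wild-type array was −0.63. For Tgfa the highest R175Q spot was 2.39 and the lowest wild-type spot 2.43, so the spots of both genes did not overlap between groups. For Erbb2 they did: spots of R175Q replicate 1 reached −0.63, and spots of wild-type replicate 2 went down to −0.75. Spots of 1 array share a hybridization and are no replicates of a group.

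**Figure D3:**
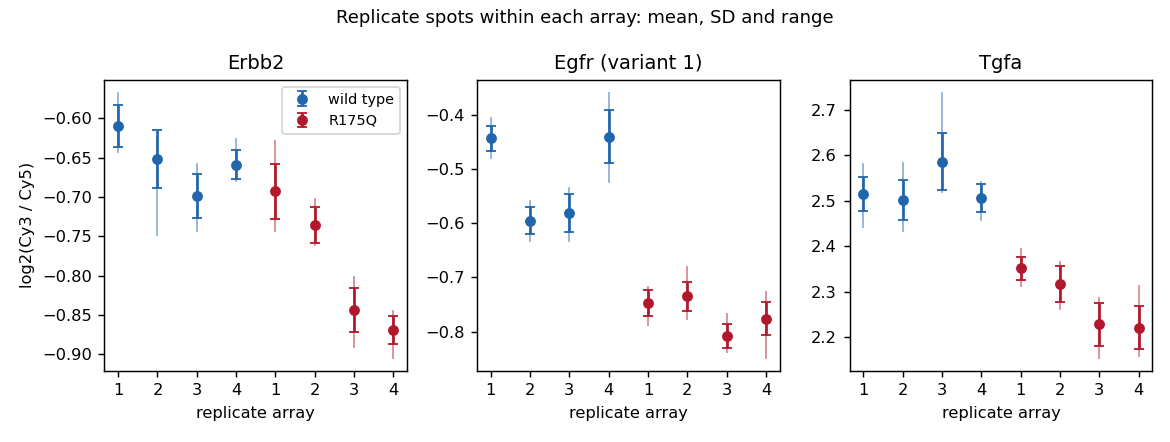
Log2 ratio of the replicate spots of Erbb2, Egfr (transcript variant 1) and Tgfa on each array, with the mean and SD over 8 to 10 spots as point and thick bar and the range as thin line, wild-type arrays in blue and R175Q arrays in red. Spots of Egfr and Tgfa do not overlap between the groups, and those of Erbb2 do.

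The ligand genes Areg, Ereg, Btc and Epgn were not called. In mm9 their probes lie together on chromosome 5, within 322.9 kb from 91464119 to 91787007. Amphiregulin, the product of Areg, is the EGFR ligand known for its part in mammary duct growth. Areg read 3.86, 3.89, 3.81 and 3.60 in R175Q and 4.00, 3.52, 3.72 and 3.79 in wild type. The groups overlap fully, and the difference was 0.034 ± 0.10 (95% interval −0.20 to 0.27; limma adjusted p = 0.870). Its sign turned with scaling between arrays, with the Cy3 channel alone, with array weights, with slide or scan day as a fixed block, and without wild-type replicate 2. With slide as a random block it stayed positive, at 0.027.

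Ereg, which codes for epiregulin, read 1.43, 1.46, 1.97 and 1.97 in R175Q and 1.81, 1.69, 1.98 and 1.97 in wild type. R175Q replicates 1 and 2 lie below every other array, and R175Q replicates 3 and 4 are level with the highest wild-type arrays. The difference was −0.16 ± 0.14 (95% interval −0.46 to 0.15; limma adjusted p = 0.502), and with the Cy3 channel alone it turned to 0.033. It was −0.063 without R175Q replicate 1, −0.074 without R175Q replicate 2, and −0.24 without R175Q replicate 3 or 4. Btc, which codes for betacellulin, read 2.51, 2.55, 2.30 and 2.46 in R175Q and 2.74, 2.29, 2.80 and 2.73 in wild type. Apart from wild-type replicate 2, every wild-type array lies above every R175Q array. The difference was −0.18 ± 0.11 (limma adjusted p = 0.317), −0.30 without wild-type replicate 2 (adjusted p = 0.0255), −0.20 with array weights (adjusted p = 0.0447) and 0.29 with the ordinary normexp background (adjusted p = 0.684).

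Epgn, which codes for epigen, read 0.24, 0.46, 0.39 and 0.28 in R175Q and 0.38, 0.12, 0.10 and 0.16 in wild type. Wild-type replicate 1 lies among the R175Q arrays, and the other wild-type arrays lie below them. The difference was 0.15 ± 0.08 (95% interval −0.027 to 0.33; limma adjusted p = 0.239), and it kept its sign in all 27 alternatives, at 0.070 to 0.21, without a call. Epgn is dim, with a corrected Cy3 brightness of 81.0 to 110.5 that includes the offset of 50. Of the 4 ligand genes on chromosome 5, 0 were called, and of the 3 elsewhere, Nrg1, Hbegf and Tgfa, all 3 were called lower. Over all tested probes 17.7% were called, with 9.73% lower. The 95% intervals of Ereg and Btc, −0.46 to 0.15 and −0.43 to 0.068, hold the Tgfa difference of −0.25. The contrast between the 2 sets of ligand genes was noticed after the values were seen, and the difference between the sets was not tested.

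How the calls rest on the processing was examined probe by probe. With the ordinary normexp background, which fits a level from the spots of each array in place of the negative controls, Nrg1 was the only member still called. Under it Egfr was −0.27 (limma adjusted p = 0.0631), −0.41 (0.33) and −0.39 (0.149) at the variant 1, variant 2 and upstream probes, Hbegf was −0.40 (0.077) and Tgfa was −0.031 (0.95). The Cy3 levels it fitted were −689.8 to −0.37 intensity units, where the negative control means were 13.8 to 23.9. Median centring of the arrays, without loess, left 2 member probes called, and moved the split over all probes from 1828 higher and 2222 lower to 2791 higher and 813 lower. Under that centring the median of all probes was 0.068, Egfr was −0.13 (limma adjusted p = 0.44) at the variant 1 probe and −0.22 (0.0756) at the upstream probe, and Tgfa was −0.12 (0.394). Scaling between arrays also left 2 member probes called, with Egfr at −0.21 (limma adjusted p = 0.159) and −0.27 (0.118) at the variant 1 and upstream probes, and Tgfa at −0.40 (0.253). With Cy3 alone Egfr variant 1 was −0.25 (0.0561). In the deposited table of log2 ratios, Egfr variant 1 was −0.24 (0.0969) and Tgfa −0.21 (0.0818), and the other called members kept their calls. Direction held for all 6 called probes under each of these settings.

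**Figure D4:**
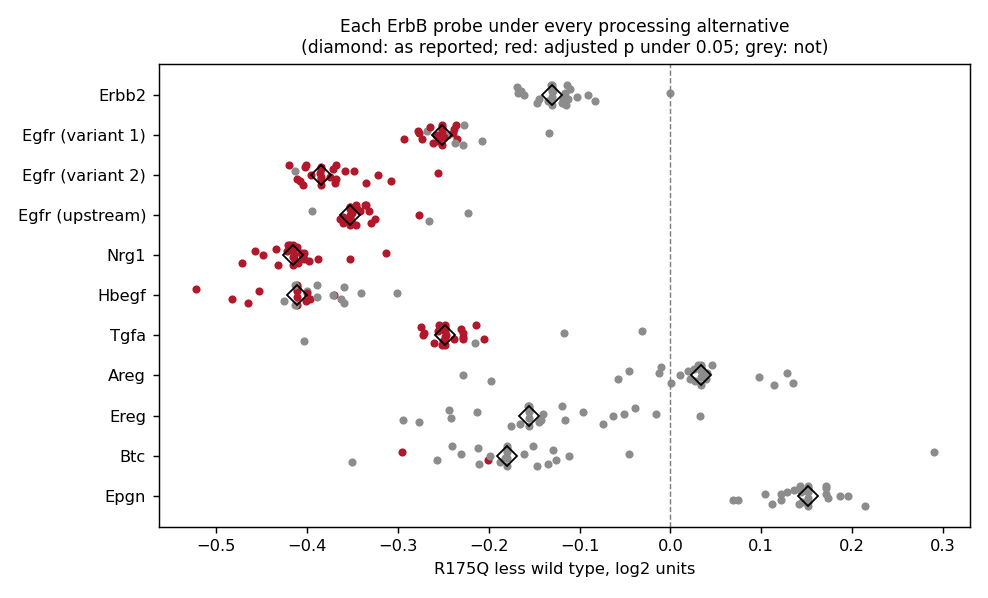
Difference between R175Q and wild type in log2 units for the 11 tested ErbB probes under each processing alternative, 1 point per alternative; open diamonds are the reported values, red points have an adjusted p under 0.05 and grey points do not. Nrg1 is red throughout. Hbegf, Tgfa and each Egfr probe have both red and grey points, and Btc, not called as reported, has 2 red points. Areg, Ereg and Btc have points on both sides of 0.

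The rest of the ErbB pathway was read from 5 lists of 61 genes, of which 57 were tested at the brightest probe of each. Of these, 3 were called higher and 5 lower, and 49 were not called, against 17.7% of all probes called. Among the other ligands, 0 of 2 tested genes were called. Egf, the ligand that names the family's first receptor, differed by −0.086 ± 0.065 (limma adjusted p = 0.423), with the opposite sign under median centring and in the deposited table, and a call at −0.16 with array weights (adjusted p = 0.0207). Without wild-type replicate 1 it was −0.048. Nrg2, a neuregulin, read 0.25, 0.15, 0.091 and 0.14 in R175Q and 0.62, 0.88, 0.13 and 0.48 in wild type, with wild-type replicate 3 down among the R175Q arrays. Its difference was −0.37 ± 0.13 (limma adjusted p = 0.0837), −0.50 without wild-type replicate 3 (adjusted p = 0.00551), −0.25 without wild-type replicate 2 (0.16) and −0.069 with the ordinary normexp background (0.584). It was called in 7 of 25 alternatives. Nrg3 stood well above background on 0 arrays and Nrg4 on 2, and neither was tested.

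Genes for ligand shedding and trafficking showed no call in 5 tested. Adam17, the protease that sheds several EGFR ligands, differed by −0.071 ± 0.079 (limma adjusted p = 0.602), and its sign turned with the ordinary normexp background, with median centring and with Cy3 alone. With array weights it was called lower, at −0.17 (adjusted p = 0.0295), and it was −0.13, −0.039 and −0.020 without wild-type replicates 2, 1 and 4. Of 21 adaptors and effectors, 0 were higher and 3 were lower, with a list median of −0.031. Besides Grb7 these were Gab1, a docking protein downstream of EGFR, at −0.36 ± 0.08 (limma adjusted p = 0.011), and Pik3cb, a catalytic subunit of PI3-kinase, at −0.26 ± 0.06 (adjusted p = 0.0158). Of 26 alternatives, Grb7 kept its call in 26, Gab1 in 24 and Pik3cb in 19. The Pik3cb call was lost without R175Q replicate 1 (−0.24), R175Q replicate 2 (−0.25) or wild-type replicate 4 (−0.23), with median centring (−0.12, limma adjusted p = 0.417), with Cy3 alone (−0.18, 0.166), with the ordinary normexp background (−0.18, 0.366) and with scan day as a fixed block (−0.24, 0.0759). The Gab1 call was lost with the ordinary normexp background (−0.39, limma adjusted p = 0.255) and with slide as a fixed block (−0.32, 0.0616). Shc1, the mouse gene for ShcA, read 0.81, 0.92, 0.98 and 1.30 in R175Q and 0.99, 1.08, 1.20 and 1.21 in wild type. The groups overlap, with a difference of −0.12 ± 0.10 (limma adjusted p = 0.497), −0.22 without R175Q replicate 4 and −0.053 without R175Q replicate 1. How much of that signal comes from the vector was not determined, and the probe does not tell the alleles apart.

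Of 12 genes for receptor turnover and inhibition, 1 was higher and 0 were lower. Socs5, which promotes the breakdown of EGFR, was 0.44, 0.46, 0.23 and 0.54 in R175Q and −0.057, 0.16, −0.18 and 0.073 in wild type, a rise of 0.42 ± 0.09 (limma adjusted p = 0.0106). Errfi1, an inhibitor of the EGFR kinase, differed by 0.14 ± 0.08 (limma adjusted p = 0.301), and by 0.087 to 0.21 over its alternatives. Among ERK targets and feedback genes 17 of 18 were tested, and 2 were higher and 2 lower. The inhibitor Spry2 and the transcription factor gene Etv4 rose by 0.48 ± 0.07 and 0.34 ± 0.06 (limma adjusted p = 0.00117 and 0.00262). The inhibitor Spry1 and the ERK-responsive gene Phlda1 fell by 0.80 and 0.42 on the log2 scale (SE 0.11 and 0.12; limma adjusted p = 0.000967 and 0.0318). The 2 Sprouty genes thus moved in opposite directions, and the list's median was 0.062. Of 26 alternatives Socs5 kept its call in 24, Spry1, Spry2 and Etv4 in 25 each, and Phlda1 in 14. The Phlda1 call was lost when any of R175Q replicates 1, 2 and 4 or wild-type replicates 1, 3 and 4 was left out, at −0.45 to −0.33. With the ordinary normexp background, Grb7 and Etv4 were the only pathway genes named here that kept a call, and Spry2 was 0.10 (limma adjusted p = 0.69). Sos2, a Ras exchange factor chosen after its values were seen, had the largest difference of the lists, 1.36 ± 0.95 (limma adjusted p = 0.385). It rests on R175Q replicate 1, which read 6.72 where the other 7 arrays read 1.45 to 1.98, and without that array the difference was 0.13. With that array kept, the Sos2 difference was 0.097 with no background correction, 0.10 with the scanner's processed signals and 0.11 with Cy3 alone. It was 0.69 with the ordinary normexp background and 1.21 in the deposited table. The cause of the high value was not tested.

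**Figure D5:**
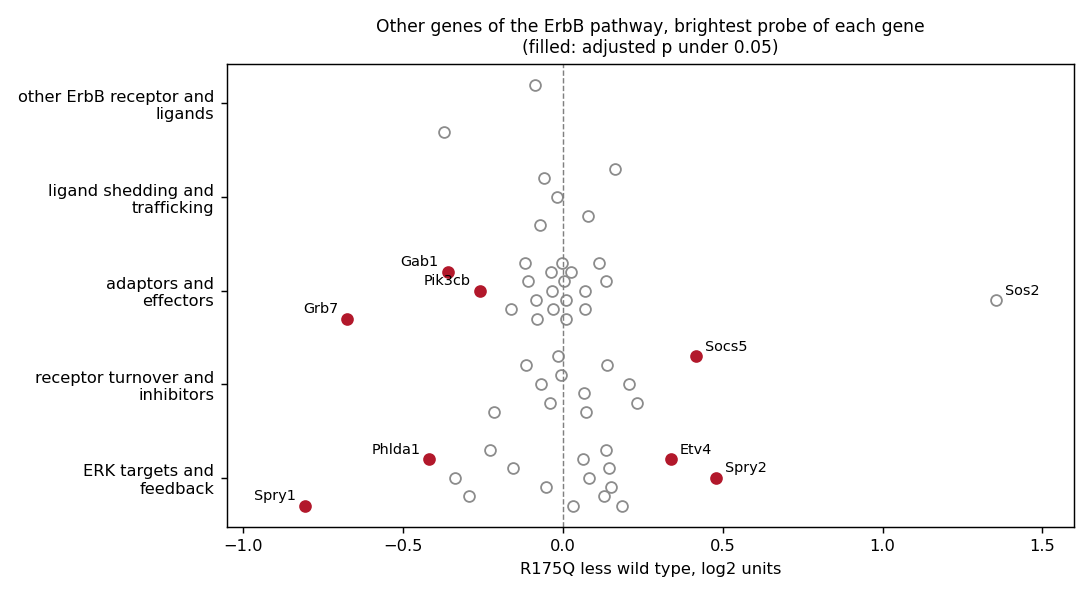
Difference between R175Q and wild type in log2 units for the 57 tested genes of the 5 pathway lists, 1 point per gene at its brightest probe, spread vertically for legibility; filled red points have an adjusted p under 0.05, and the labelled open point is Sos2. Called genes lie on both sides of 0, with 3 higher and 5 lower.

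Markers of cell types were read beside these results. For comparison, 17.7% of all tested probes were called, 9.73% lower and 8.0% higher. Of 7 tested epithelial markers 3 were lower in R175Q, namely the keratin genes Krt7 at −1.91 ± 0.06, Krt19 at −0.40 ± 0.08 and Krt8 at −0.21 ± 0.06 (limma adjusted p = 1.93e-07, 0.00892 and 0.0397). The mean log2 ratio of the list was −0.020 to 0.054 over the R175Q arrays and 0.40 to 0.53 over the wild-type arrays. Krt7 weighs most in that mean, and the median difference of the 7 genes was −0.21. The 4 epithelial markers not called differed by −0.27 (Epcam) to −0.012 (Cdh1). Of 6 fibroblast markers 3 were higher: Pdgfrb at 1.18 ± 0.10, Dcn at 0.72 ± 0.14 and Col3a1 at 0.39 ± 0.11 (limma adjusted p = 4.8e-05, 0.00501 and 0.0289). Pdgfra at 0.24, Col1a1 at 0.079 and Thy1 at −0.025 were not called. That list's mean was −5.97 to −5.67 in R175Q and −6.42 to −6.21 in wild type, far below the reference in both, and with the ordinary normexp background Dcn and Col3a1 turned to −0.042 and −0.28, and Pdgfrb was 0.66 and no longer called (limma adjusted p = 0.0874). Of 6 macrophage markers 1 was lower, Adgre1 at −0.28 ± 0.08 (limma adjusted p = 0.0283), which turned to 0.059 with scaling between arrays. Its call held in 11 of 25 alternatives, and was lost among others with no background correction, median centring, Cy3 alone and the deposited table. Cd68 went the other way, at 0.54 (limma adjusted p = 0.167), and Ptprc, Csf1r, Lyz2 and Itgam differed by −0.14 to −0.030 without a call. The macrophage list's mean was −4.19 to −4.04 in R175Q and −4.23 to −3.90 in wild type. Leaving out single arrays ended the calls of Krt8 (R175Q replicates 2, 3 and 4 and wild-type replicates 1, 2 and 4, at −0.23 to −0.18), Col3a1 (R175Q replicates 3 and 4 and wild-type replicates 1, 2 and 4, at 0.33 to 0.40) and Adgre1 (R175Q replicates 1, 2 and 4 and wild-type replicate 1, at −0.29 to −0.23). No basal or endothelial marker was called, and the endothelial marker Cdh5 was above background on 0 arrays. The part of these markers in the ErbB results was not tested. Fewer cells of a type and less RNA per cell cannot be told apart in such samples.

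The probes with the pattern most like that of a member over the 8 arrays were found by Pearson's r, given as a description, since arrays of both groups enter it and a difference between groups raises it. For Erbb2 they were Cdc34, Norad and Taf10, with r of 0.986, 0.985 and 0.983. The variant 1 probe of Egfr was nearest to Trpt1, Mfsd2b and Gm10375, with r of 0.995, 0.994 and 0.993. For Nrg1 they were Sdsl, Akr1c13 and Ccdc136, with r of 0.998, 0.997 and 0.994. Of these, the neighbours of Egfr and Nrg1 were themselves called lower, by 0.35 to 0.98 on the log2 scale, and those of Erbb2 were not called.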

How the data were processed

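The 8 samples were hybridized on 2-colour Agilent arrays with the sample in Cy3 and a reference in Cy5, with no dye swap. Per the labels' protocols, RNA went through 2 rounds of amplification; the labels call the reference mouse in one field and human in another, and call the material microdissected though they describe cultured cells. The scanner software was Agilent Feature Extraction 9.5.3.1, which per the file headers gave each spot's mean intensity, its local background intensity and a log10 ratio of Cy5 over Cy3. The authors also deposited a table of log2 ratios, whose values run as Cy3 over Cy5 (r with the scanner's ratio 0.902 to 0.941 across probes, slope 0.657 to 0.751, column medians 0.0526 to 0.0617); its scaling and centring are not given in the sources used here.

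From the spot intensities, local background was subtracted, normexp was applied with the mean and SD of the 153 negative control spots and an offset of 50, and loess was run within each array (limma 3.58.1, R 4.3.3). Control and flagged spots were left out, and spots of a probe averaged, giving 39429 probes. The filter, a Cy3 signal well above background on 4 or more of 8 arrays, kept 22969; 122 with a missing value were dropped. R175Q was compared with wild type by lmFit and eBayes on 22847 probes, threshold 0.05. Values after ± are standard errors unless named SD. Slide 1 holds 1 array, so within-slide values come from slides 2, 3 and 4. Slides were 4 and scan days 3.

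The members, lists and tests were chosen with earlier results of these data known. Named genes were all members, up to 4 called genes per direction of each pathway list, and Erbb4, Egf, Nrg2, Nrg3, Nrg4, Shc1, Adam17 and Errfi1; called markers are also named. Current symbols came from a GRCm38.p6 table for 26761 of 39429 probes; mm9 coordinates are those of the files, and exon or UTR placement was not determined. Same-numbered arrays of the 2 groups were not treated as pairs. The fit was tested on simulated data with each probe's own spread. It recovered 4%, 68%, 98% and 100% of shifts of 0.25, 0.5, 1 and 2 on the log2 scale, and 2.88% of its calls were false. Fewer probes carried a shift there than were called in the data, which makes the adjustment stricter. The number of arrays limits the precision. Alternatives covered background, normalization, the Cy3 channel alone, the deposited table, filters, variance models, blocks, and leaving out each array. A background from the median and MAD of the negative controls was added after seeing the data.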

Additional observations from a re-analysis of the deposited data

Results flagged for a closer look

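In 66 groups of 4 arrays checked, 5 held an array whose gap to the other 3 was large against the range of its group. By chance the rule marks about 1 in 20 groups of an unselected set. Here Sos2 was chosen after its values were seen, and other pathway and marker genes for their calls, so the count is not read against that rate. For Tgfa, wild-type replicate 3 read 2.59, above the other wild-type arrays at 2.50 to 2.52 (gap over range 0.835). For Btc, wild-type replicate 2 read 2.29, below the others at 2.73 to 2.80 (0.857). Outside the ErbB family, R175Q replicate 1 read 6.72 for Sos2 (0.935), R175Q replicate 4 read 1.71 for Krt19 (0.873), and R175Q replicate 3 read −1.71 for Pdgfrb (0.923). For Krt19 the gap is small in log2 units, since the other R175Q arrays read 1.65.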

How the results depend on the processing

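Of the 6 ErbB probes called lower, 1 was called with the ordinary normexp background, 2 with median centring and 2 with scaling between arrays; no alternative called a member higher. In the same 3 settings 483, 2791 and 1137 of all probes were called higher and 428, 813 and 1265 lower, and array weights gave 3799 and 4883. Leaving out 1 array at a time gave 1461 (without wild-type replicate 1) to 2646 (without wild-type replicate 3) called lower. Signs turned for Areg (−0.198 with scaling, −0.228 with Cy3 alone, −0.0577 with array weights, −0.0124 and −0.0107 with slide or scan day as a fixed block, and −0.0458 to 0.114 over single arrays left out), Btc (0.29 with ordinary normexp), Ereg (0.0331 with Cy3 alone), Egf (0.0349 with median centring, 0.0387 in the deposited table), Adam17 (0.0703, 0.0726 and 0.00242 with ordinary normexp, median centring and Cy3 alone), Col3a1 and Dcn (−0.278 and −0.0421 with ordinary normexp) and Adgre1 (0.0587 with scaling). The causes were not tested. Whether replicate numbers pair the arrays was not settled. Correlations of same-numbered arrays were 0.0132 to 0.466, with 2 of 4 R175Q arrays closest to their own number. With the replicate number as a block, 6 member probes were lower, and 2120 of all probes were higher and 2522 lower. Without that block, 1828 of all probes were higher and 2222 lower. Signal near background limits Erbb3 and Epgn.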
